A study of Mus musculus with 4 samples.

Results

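The genes of the major histocompatibility complex (MHC) and of antigen presentation were compared between CD8αβ+ IELs, the intraepithelial T cells of the small intestine, and CD8αβ+ SPLs, the corresponding T cells of the spleen. The members were all gene probes whose name on the array begins with H2-, the prefix of the mouse MHC, together with B2m, Tap1, Tap2, Tapbp, Cd74, Ciita, Cd1d1 and Mr1, which made 47 of the 27376 gene names on the array and 74 of its 41174 probes. Both groups came from male wild-type mice that were 8 to 12 weeks old according to the labels, with no treatment or mutation named, and they differed in the tissue of origin and in how the cells were isolated, with EDTA shaking and a density gradient for the intestine and mechanical filtration and red cell lysis for the spleen. Tissue and isolation cannot be told apart. Each group held 2 samples, each pooled from several mice and sorted for CD3, TCRβ, CD8α and CD8β, and each was measured on a separate 1-color array from Agilent. IEL replicate 1 and SPL replicate 2 were on slide 1, and IEL replicate 2 and SPL replicate 1 were on slide 2, so that each slide gave 1 difference between the tissues.

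MHC class I molecules present peptides from inside the cell to CD8 T cells and are found on nearly all nucleated cells, where they pair with β2-microglobulin after the TAP transporter has moved peptides into the endoplasmic reticulum. MHC class II molecules present peptides of ingested proteins to CD4 T cells, and in mice they are made mainly by B cells, dendritic cells, macrophages and thymic epithelium, whereas resting mouse T cells make little. Class II genes are switched on together by the transactivator CIITA, which docks on factors bound at the X box and the Y box of their promoters.

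The level of a probe is given here as the log2 of its background-subtracted intensity minus the 75th percentile of its array, so that 0 is the 75th percentile and levels of different probes are not compared. Testing required that both arrays of 1 group, or of both groups, were well above background for the probe, and a gene was represented by its brightest tested probe. This left 62 of the 74 probes and 36 of the 47 genes. The other 11 genes, namely H2-Ea-ps, H2-M1, H2-M9, H2-M11, H2-T3, H2-T18 and all of the H2-M10 genes except H2-M10.2, stayed below this limit on all 4 arrays. No member probe was saturated.

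The samples carried the RNA of CD8 T cells on all arrays. Cd8b1, which encodes the CD8β chain, had levels of 7.40 and 7.98 in IEL replicates 1 and 2 and of 8.04 and 8.11 in SPL replicates 1 and 2. Cd8a had 7.08, 6.77, 6.69 and 6.43 in the same order. Pearson's r over 27912 probes, which are not independent replicates, was 0.946 between the CD8αβ+ IEL arrays, 0.986 between the CD8αβ+ SPL arrays, and 0.992 between IEL replicate 2 and SPL replicate 1. IEL replicate 2 was thus closer to a spleen array than the spleen arrays were to each other and than it was to IEL replicate 1, and labels were kept as given. With 2 samples per group, an exact permutation test cannot go below p = 0.33 (two-sided), and limma called 0 of 27937 probes at an adjusted p under 0.05 (0%), with 1603 (5.74%) at an unadjusted p under 0.05. Each sample was sorted from a pool of mice, so the spread within a group is between pools and not between animals.

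The promoters of 4 class II genes and of B2m are shown, because the class II genes were the members with lower values as a group and the boxes are their known common feature. The stretches are RefSeq sequences of GRCm38.p6, 120 bases each from 150 to 31 bases before the annotated start, written 5′ to 3′ along the gene, and capitals mark GCAACNG (X box letters), CTGATTGG (Y box letters) or TTCNNTTTC (an interferon-response motif) on either strand.
H2-Aa (chr17:34287854-34287973, minus strand): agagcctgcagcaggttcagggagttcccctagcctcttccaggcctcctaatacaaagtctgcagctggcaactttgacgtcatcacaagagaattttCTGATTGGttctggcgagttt
H2-Eb1 (chr17:34305717-34305836, plus strand): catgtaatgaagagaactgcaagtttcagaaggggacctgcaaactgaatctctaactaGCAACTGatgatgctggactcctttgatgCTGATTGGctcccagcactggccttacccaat
H2-Eb2 (chr17:34325525-34325644, plus strand): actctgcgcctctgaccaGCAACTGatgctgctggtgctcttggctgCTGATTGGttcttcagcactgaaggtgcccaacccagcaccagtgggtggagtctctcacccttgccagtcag
H2-Oa (chr17:34092229-34092348, plus strand): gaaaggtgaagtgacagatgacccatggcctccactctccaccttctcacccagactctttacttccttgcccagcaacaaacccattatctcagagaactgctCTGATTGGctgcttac
B2m (chr2:122147537-122147656, plus strand): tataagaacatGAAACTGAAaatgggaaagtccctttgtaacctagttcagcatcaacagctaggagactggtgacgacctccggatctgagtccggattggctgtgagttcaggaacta

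The Y box letters were found in the window of 4 of the 8 class II genes for which a window was listed, in 10 of 18 nonclassical class I genes, in H2-K1 and in Tap1, and in 4.1% of all 32851 windows of 300 bases. They were therefore not particular to class II among the members. The X box letters were found in 2 of these 8 genes, and in 12.7% of all windows. H2-M10.5, a nonclassical gene, held the letters of both boxes on the reverse strand. H2-Eb1 and H2-Eb2 also held both, with the first base of the X box letters 29 bases before that of the Y box letters in each, and 0.575% of all windows held both on any strand and at any distance. H2-DMa, H2-DMb1, H2-DMb2 and H2-Ob had no match in their windows. The interferon-response letters were found in B2m, H2-T22 and H2-T23 among the members, on the reverse strand in B2m, and in 8.56% of all windows. A match of letters is no evidence of binding, and no match says only that these letters are not in this window.

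**Figure D1:**
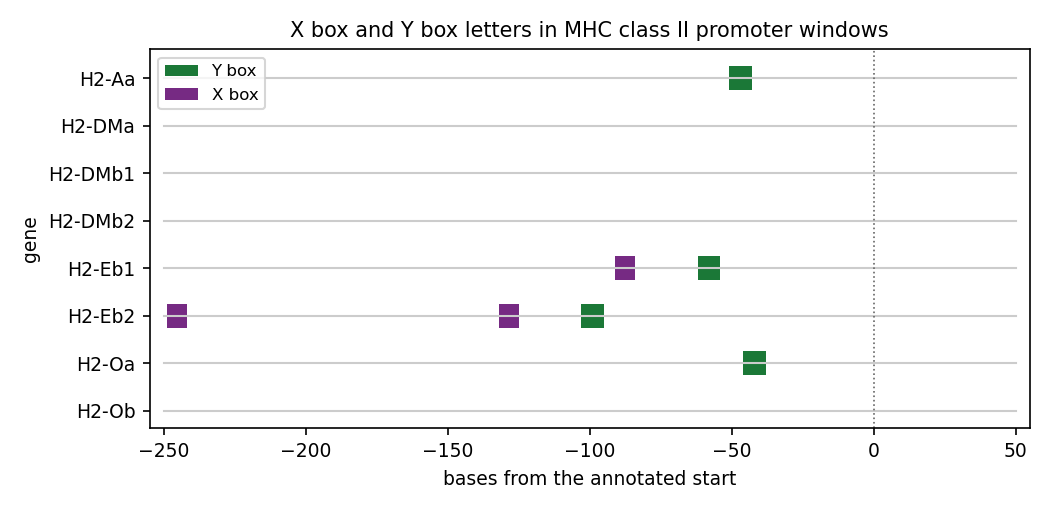
Matches of the X box letters (purple) and Y box letters (green) in the promoter windows of 8 class II genes, by bases from the annotated start (dotted line). Matches of both lie close together in H2-Eb1 and H2-Eb2, and H2-Aa and H2-Oa have an exact match of the Y box letters alone.

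The class II genes were lower in CD8αβ+ IELs than in CD8αβ+ SPLs by point estimate in 9 of 9 tested genes and on both slides, as were 36.2% of all genes, although H2-Eb2 turned to 0.20 under normexp background correction fitted without the spots far below their local background. None of these differences passed the correction. Their median log2 fold change was -1.51 (range -4.20 to -0.83), against 0 over all 18464 genes with a tested probe. The median was -2.63 on slide 1 and -0.43 on slide 2. H2-DMb2, H2-Eb2 and H2-Ob passed the filter only through the spleen arrays, where they were high, so their direction was in part set by the filter. The other 6 class II genes were well above background on all arrays, and for them the median was -1.41 (range -2.35 to -0.83), with -2.55 on slide 1 and -0.32 on slide 2. IEL replicate 1 was the lowest array for 9 of 9 genes and for these 6 of 6, as for 39.8% of all genes, and IEL replicate 2 lay near the spleen arrays for most of them. In bulk RNA, fewer cells of a type and less RNA per cell cannot be told apart.

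H2-Ab1 encodes the β chain of the I-A molecule, one of the 2 peptide-presenting class II molecules of the mouse. Its level was 1.88 and 4.26 in IEL replicates 1 and 2, and 4.61 and 4.35 in SPL replicates 1 and 2 (chromosome 17 of mm9, probe from 34406059 to 34406118). IEL replicate 1 was low and the other 3 arrays were within 0.35 of each other, so that the groups did not overlap but differed mainly through 1 array. Its log2 fold change of -1.41 had a standard error of 0.84 and an adjusted p of 0.634 in limma, and the slides gave -2.47 and -0.35. All 4 probes of H2-Ab1 had a fold change between -1.42 and -1.28.

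H2-Aa, the α chain of I-A, had levels of -0.52, 2.17, 2.38 and 2.11 in IEL replicates 1 and 2 and SPL replicates 1 and 2 (chromosome 17, probe from 34421285 to 34421344), and the groups overlapped, since IEL replicate 2 lay above SPL replicate 2. The difference of -1.42 had a standard error of 0.94 (adjusted p 0.634, limma). H2-Eb1, the β chain of I-E, had 0.35, 2.70, 2.98 and 2.54, and its groups overlapped as well. The study's legend to its microarray figure gives C57BL/6 as the background of the mice behind these arrays. C57BL/6 mice lack the I-E α chain, and the probe of H2-Ea-ps, its pseudogene, was dim on all 4 arrays. H2-Eb2, a β gene next to H2-Eb1, was near the limit of detection, with -6.67 and -6.06 in CD8αβ+ IELs and -4.67 and -5.05 in CD8αβ+ SPLs. Its brightest probe was not well above background on either CD8αβ+ IEL array. With each of these arrays counted at its lowest signal well above background, this probe alone gave a level at least 1.96-fold lower than in CD8αβ+ SPLs. Since the probe entered the test only through the spleen arrays, its p (0.00837 unadjusted and 0.634 adjusted, limma) is no support for the difference. The second H2-Eb2 probe, which shares 40 of its 60 bases with the first, gave -0.59, with -1.22 on slide 1 and 0.05 on slide 2. It was well above background in IEL replicate 2. Its bound on slide 1 was 0.917-fold, so the 2 probes together set no minimum for the difference.

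The genes of peptide loading were lowest on the same array. H2-DMa and H2-DMb1 encode chains of H2-DM, which helps to replace the invariant chain fragment by antigenic peptide. H2-DMa had levels of 0.44, 1.84, 2.05 and 1.90 in IEL replicates 1 and 2 and SPL replicates 1 and 2, the smallest difference of the class, at -0.83. H2-DMb1 had -1.11, 1.24, 1.89 and 1.72, and both CD8αβ+ IEL arrays lay below both CD8αβ+ SPL arrays. A second H2-DMb1 probe, which matched H2-DMb2 as well by accession, gave -1.87. H2-DMb2, another β chain gene of H2-DM, had -5.60, -1.93, -1.44 and -1.82. It was not well above background in IEL replicate 1, where its measured level was 13.8-fold lower than on the spleen array of the same slide. That value is a point estimate from a dim probe and sets no lower limit.

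H2-Oa and H2-Ob encode H2-O, an inhibitor of H2-DM that is best known from B cells, and they showed the largest differences among the class II genes. H2-Oa had levels of -1.69, 2.25, 2.67 and 2.57 in IEL replicates 1 and 2 and SPL replicates 1 and 2, which gives -2.35 with a standard error of 1.35 (adjusted p 0.634, limma). H2-Ob had -7.26, -1.34, -0.08 and -0.12, with a fitted difference of -4.20 and a standard error of 2.02 (adjusted p 0.634, limma). IEL replicate 1 was not well above background for H2-Ob, and it was at least 50.8-fold lower than SPL replicate 2 on its slide. On slide 2 the H2-Ob difference was -1.26. Of the 6 class II genes that were well above background on all arrays, 6 were at least 2-fold lower on slide 1, as were 13.7% of all probes, and 0 were on slide 2, as were 0.731%.

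Cd74, which encodes the invariant chain that guides class II molecules to the endosome, had levels of 1.91 and 4.74 in IEL replicates 1 and 2 and of 5.28 and 4.71 in SPL replicates 1 and 2. The difference of -1.67 had a standard error of 1.00 (adjusted p 0.634, limma). Ciita, the transactivator of class II genes, had -3.15, -0.03, 0.29 and -0.16, which gives -1.65 with a standard error of 1.09 (adjusted p 0.634, limma). In both genes IEL replicate 2 lay between the spleen arrays. Together with these 2 genes, 11 of 11 were lower on both slides. Of the 8 that were well above background on all arrays, 4 had both CD8αβ+ IEL arrays below both CD8αβ+ SPL arrays, against 24.6% of all probes.

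**Figure D2:**
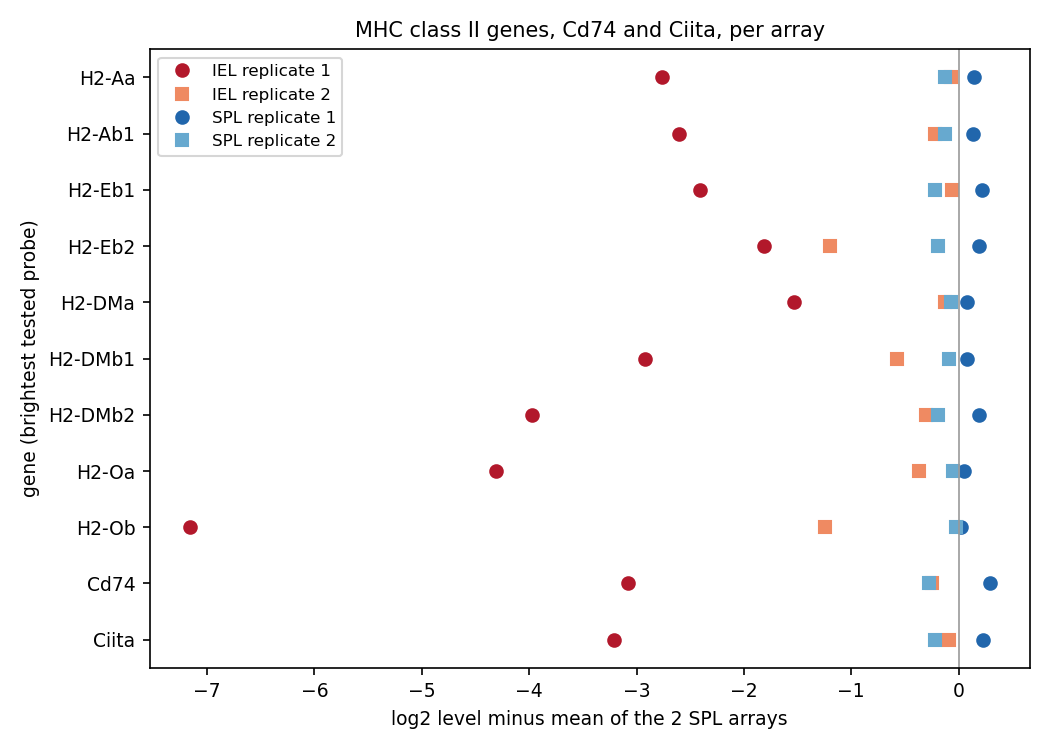
Level of each class II gene, Cd74 and Ciita on the 4 arrays, as log2 difference from the mean of the 2 CD8αβ+ SPL arrays. IEL replicate 1 lies at -1.53 to -7.16 relative to the spleen mean, and IEL replicate 2 lies close to it except for H2-Eb2 and H2-Ob.

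The size of the class II difference rested on IEL replicate 1. Without IEL replicate 2, limma called 11 of 11 of these genes lower at an adjusted p under 0.05, including the 8 that were well above background on all arrays, where 11% of all probes were called lower and 8.55% higher. That fit assumes that the lone CD8αβ+ IEL array varies like the spleen arrays. Without IEL replicate 1, it called 0 of them, and the median of the class II genes was -0.30. Over class II, Cd74 and Ciita, the median absolute difference was 2.69 between the CD8αβ+ IEL arrays, 0.27 between the CD8αβ+ SPL arrays, 0.43 between IEL replicate 2 and SPL replicate 1 on its own slide, and 0.13 between IEL replicate 2 and SPL replicate 2. Over all probes the same differences were 0.46, 0.23, 0.17 and 0.28.

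Lists of other cell types differed in direction. B cell markers and most macrophage and monocyte markers were lower, as class II was. Enterocyte and Paneth cell markers were higher, and the dendritic cell and plasma cell lists were mixed. Of 12 B cell markers, 11 were tested, and 11 of 11 were lower in CD8αβ+ IELs on both slides, as were 36.2% of all genes. The 11 markers had a median of -2.22 (-4.12 on slide 1 and -0.42 on slide 2). Of these, 5 passed the filter only through the spleen arrays, and the other 6 had a median of -1.39 (-2.41 and -0.40). Ms4a1, which encodes CD20, had levels of -6.15, 2.27, 2.60 and 2.40 in IEL replicates 1 and 2 and SPL replicates 1 and 2. It was among the 5 that passed only through the spleen arrays and was not well above background in IEL replicate 1. Cd79b, which was well above background on all arrays, had 1.75, 3.74, 4.10 and 3.65 in the same order. In IEL replicate 1, 6 of 12 B cell markers were well above background, against 11 or 12 on each other array. Over all probes the share was 63.6% in IEL replicate 1 and 67.6% to 69.6% on the other arrays. The summed level of the B cell list, as intensity relative to the 75th percentile, was 3.79 and 23.8 in IEL replicates 1 and 2 and 30.7 and 23.6 in SPL replicates 1 and 2, and that of class II with Cd74 and Ciita was 11.7, 69.2, 93.1 and 71.7. Both sums were low in IEL replicate 1 and several times higher on the other 3 arrays. IEL replicate 1 was the lowest array for 11 of 11 tested B cell markers and for 12 of 14 macrophage and monocyte markers, as for 39.8% of all genes.

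Of 14 macrophage and monocyte markers, 12 were lower on both slides, as were 36.2% of all genes. The median was -2.05 over the 14, of which 6 passed the filter only through the spleen arrays. Csf1r, the receptor of a macrophage growth factor, had -4.87, 0.53, 0.93 and -0.25 in IEL replicates 1 and 2 and SPL replicates 1 and 2. The summed level of this list was 48.6, 40.9, 49.1 and 44 in the same order, and Lyz2, at 5.56, 4.81, 5.02 and 5.21, made up most of it. The dendritic cell list had 9 tested genes with a median of -0.36, of which 5 were lower and 4 higher. Clec9a and Cd209a of this list passed the filter only through the spleen arrays. The summed level of the dendritic cell list was 13.1, 36.2, 45.8 and 59.6. Ccr7, at 1.60, 4.89, 5.33 and 5.79, made up most of it except in IEL replicate 1. Enterocyte markers were higher in 13 of 13 tested genes, as were 9189 of all 18464 genes. The enterocyte list had a median of 3.13 and a summed level of 26.1, 5.3, 2.18 and 0.612. Paneth cell markers were higher in 8 of 8 and on both slides in 7, as were 6731 of all genes on both slides. The Paneth cell list had a median of 5.05 (8.92 on slide 1 and 1.17 on slide 2), and its summed level was 697, 26.9, 17.1 and 10.1. Krt20 and Apoa1 of the enterocyte list and Itln1 of the Paneth cell list passed the filter only through the CD8αβ+ IEL arrays. The plasma cell list had a median of -0.08 over 4 genes, and the T cell list had 0.37 over 11 genes, with a summed level of 956, 874, 837 and 797. The part of these markers in the class II result was not tested.

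**Figure D3:**
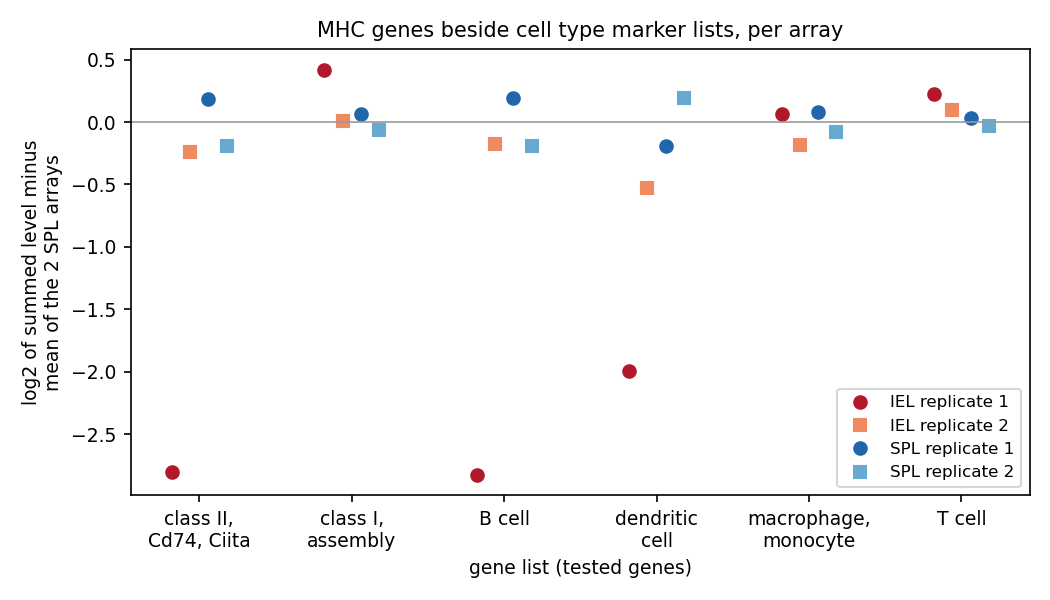
Summed level of the tested genes of 6 lists on each array, as log2 difference from the mean of the 2 CD8αβ+ SPL arrays. Class II with Cd74 and Ciita and the B cell list are lowest in IEL replicate 1, and class I and the T cell list stay within 0.5 log2 units on all arrays.

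Class I genes differed little between CD8αβ+ IELs and CD8αβ+ SPLs by point estimate. On the brightest probe of each gene, the largest absolute log2 fold change among the 19 tested genes of class I and its assembly was 0.57, whereas H2-Q10 had 0.84 as the mean of its probes, and 0 of the 19 passed the correction or had an unadjusted p under 0.05 on their brightest probe. Their median was 0.18, with 0.44 on slide 1 and -0.08 on slide 2, and IEL replicate 1 was the highest array in 15 of 19. These values do not show that the levels were equal.

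Of the classical genes, H2-K1 had levels of 8.93 and 8.51 in IEL replicates 1 and 2 and of 8.59 and 8.45 in SPL replicates 1 and 2 (chromosome 17 of mm9, probe from 34133055 to 34133114), which gives 0.20 with a standard error of 0.27 (adjusted p 0.764, limma). The groups overlapped, and the 4 probes gave 0.08 to 0.20. H2-L, whose probes matched the RefSeq gene H2-D1 by accession, had 7.95, 7.76, 7.72 and 7.49 and a difference of 0.25 with a standard error of 0.25 (adjusted p 0.699, limma). Its brightest probe also matched H2-Q2.

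Probes of class I genes can share long runs of bases, so that their values are uncertain as measures of 1 gene. The longest runs shared by probes of different genes that were well above background on all arrays are shown, in lower case and along the probe.
H2-T23 and H2-Q7: ttggagctgtggtggcttttgtgatgaa
H2-Q2 and H2-L: tccactgactcttacatggtgatc
H2-Q10 and H2-K1: caagtgggagcaggctggtg
The runs are of 28, 24 and 20 bases of 60.

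Nonclassical class I genes had a median of 0.18 (range -0.41 to 0.57) over 13 tested of 23 genes, with 0.50 on slide 1 and -0.08 on slide 2. H2-T23 encodes Qa-1, the ligand of CD94-NKG2A, and it had levels of 7.68, 7.11, 7.19 and 7.08 in IEL replicates 1 and 2 and SPL replicates 1 and 2. H2-T3 and H2-T18, the genes of the thymus leukemia antigen, which binds CD8αα, were dim on all 4 arrays. H2-T22 had 5.81, 5.80, 5.88 and 5.96. All 3 of its probes had both CD8αβ+ IEL arrays below both CD8αβ+ SPL arrays, as did 24.6% of all probes. The log2 fold changes of the 3 probes were small, from -0.25 to -0.11, with standard errors of 0.22 to 0.24.

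By size of difference on the brightest probe, H2-Q1 came first among the nonclassical genes, with -3.28, -4.63, -4.79 and -4.25 in IEL replicates 1 and 2 and SPL replicates 1 and 2 and a log2 fold change of 0.57, which turned to -0.89 under normexp. H2-Q5 followed with 5.15, 4.68, 4.60 and 4.24 (0.49), and it was higher on both CD8αβ+ IEL arrays. H2-T24 had -3.11, -2.04, -2.05 and -2.28 (-0.41), where IEL replicate 1 alone was low. H2-Q7 and H2-M3, which presents formylated peptides, both had 0.28. Among the other genes with an H2 name, H2-D4 had 0.33 and H2-Ke6 had -0.37. H2-Ke2, which RefSeq names Pfdn6, is no MHC molecule.

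H2-Q10 encodes a secreted class I molecule known from liver, and its 5 probes disagreed in size. The brightest, which also matched H2-D1 by accession, had levels of 7.68, 6.98, 7.06 and 7.01 in IEL replicates 1 and 2 and SPL replicates 1 and 2, a log2 fold change of 0.30. A probe that matched H2-Q10 alone (chromosome 17 of mm9, 35610468 to 35610527) had 2.35, 1.06, 0.54 and -0.49, which gives 1.68 with a standard error of 0.60 (unadjusted p 0.0451 and adjusted p 0.634, limma). A second such probe (35611365 to 35611424) had 3.28, 1.98, 1.41 and 0.73, a fold change of 1.57 (unadjusted p 0.041, adjusted p 0.634 from limma). Both CD8αβ+ IEL arrays were above both CD8αβ+ SPL arrays on these 2 probes, as in 24.4% of all probes. Another probe that matched H2-Q10 alone (35607907 to 35607966) had 5.66, 4.56, 4.63 and 4.63, a fold change of 0.48. The remaining probe, without a RefSeq match, gave 0.18. On both of these the groups overlapped, and the slide 2 differences were -0.08 and -0.10. As the mean of its 5 probes, H2-Q10 had 0.84. The H2-Q10 probes with 1.68 and 1.57 and the brightest H2-Eb2 probe were the 3 of 62 member probes with an unadjusted p under 0.05 in limma.

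The genes of class I assembly had a median of -0.08. B2m, the light chain β2-microglobulin, had levels of 8.21, 7.87, 7.80 and 7.76 in IEL replicates 1 and 2 and SPL replicates 1 and 2 on its brightest probe, which gives 0.26 with a standard error of 0.25 (adjusted p 0.699, limma), and its 3 probes gave 0.14 to 0.55. Tap1 and Tap2, the subunits of the peptide transporter, had log2 fold changes of -0.10 and -0.06. Tapbp, which encodes tapasin, the bridge between the transporter and class I, had 5.22, 5.66, 5.87 and 5.59, a fold change of -0.29, whereas its second probe had 0.06.

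**Figure D4:**
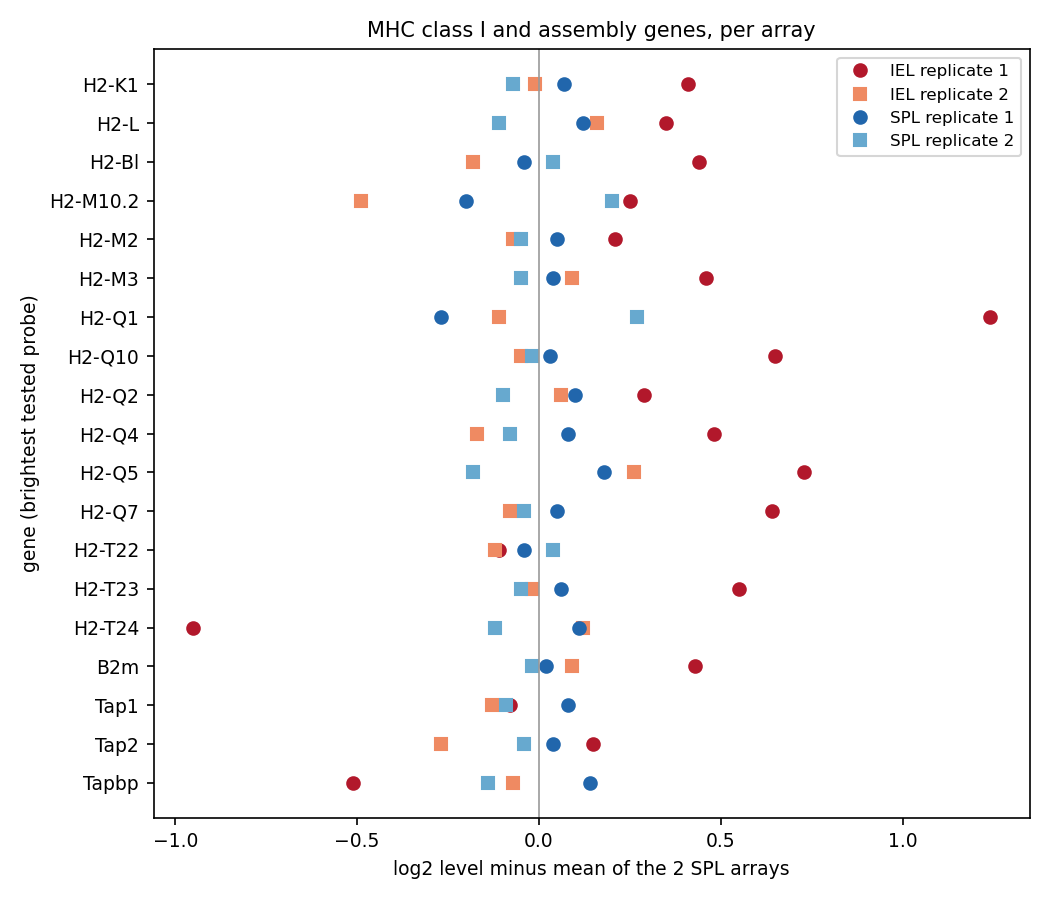
Level of each tested class I and assembly gene on the 4 arrays, as log2 difference from the mean of the 2 CD8αβ+ SPL arrays. IEL replicate 1 is the highest array in 15 of 19 genes, and no brightest probe has a mean difference over 0.57.

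Of the MHC-like genes, Cd1d1, which presents lipids to NKT cells, had 2.45, 2.64, 2.64 and 2.74 in IEL replicates 1 and 2 and SPL replicates 1 and 2, a log2 fold change of -0.14, which turned to 0.26 under normexp. Mr1, which presents vitamin B metabolites to MAIT cells, had -2.34, -1.60, -1.31 and -1.55, which gives -0.54 with a standard error of 0.35 (adjusted p 0.634, limma), and its second probe gave -0.25.

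**Figure D5:**
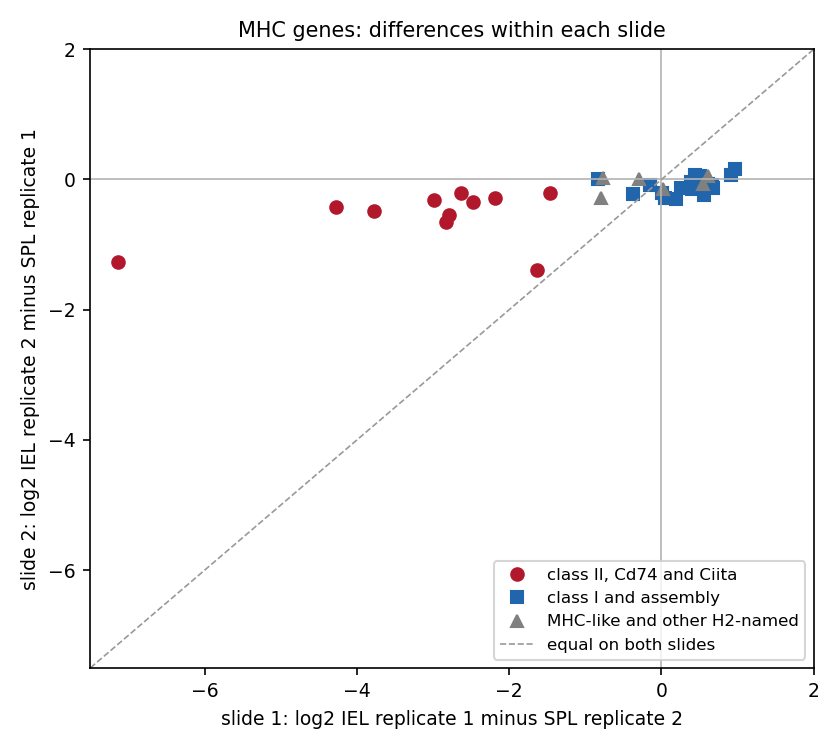
Difference between CD8αβ+ IELs and CD8αβ+ SPLs on slide 1 (x axis) against slide 2 (y axis), in log2 units, for the 36 tested MHC and antigen presentation genes. Class II genes, Cd74 and Ciita lie to the left of all other members, and most points lie nearer 0 on slide 2.

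Beyond the members, 21 genes of the class I pathway and 22 of the class II pathway were tested, and 0 of either passed the correction. The class I pathway list had a median of -0.09, with 10 genes higher and 11 lower. Psme3, a proteasome activator subunit, had levels of 2.98, 2.32, 1.72 and 1.28 in IEL replicates 1 and 2 and SPL replicates 1 and 2, a log2 fold change of 1.16 (unadjusted p 0.0261, adjusted p 0.634 from limma). Hspa5 and Pdia3, chaperones of the endoplasmic reticulum, had 0.64 and 0.55. The immunoproteasome genes Psmb8, Psmb9 and Psmb10 had -0.23, -0.25 and -0.18. The class II pathway list had a median of -0.27, with 14 genes lower and 8 higher. Its largest differences were in Spib, a transcription factor of B cells and plasmacytoid dendritic cells, with -4.90, 0.53, 0.82 and 0.25 (-2.72), in March1, a ligase that removes class II from the surface, with -2.37, and in Lgmn, a lysosomal protease, with -1.78. March1 was not well above background in IEL replicate 1 (-5.40) and passed the filter only through the spleen arrays. On slide 2, Spib, March1 and Lgmn had -0.29, -0.21 and -0.45, and the groups overlapped in each. The factors that bind the X box and the Y box had smaller differences, with -0.63 for Rfx5, -0.09 for Rfxap, 0.00 for Rfxank, and -0.35, 0.17 and 0.04 for Nfya, Nfyb and Nfyc. A list of 16 genes of the interferon-γ response, which raises both classes in many cells, had a median of -0.19, with 6 genes higher and 10 lower.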

How the data were processed

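RNA of 2 CD8αβ+ IEL and 2 CD8αβ+ SPL samples was measured on 4 Agilent 1-color arrays. In the deposited scanner output (Feature Extraction 10.7.3.1 per the file headers), processed intensity has the background subtracted within each array. A deposited table of log2 values, equalized across the arrays by the authors, served as an alternative. The study's methods name PrimeView chips, whereas the files are of an Agilent design.

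The log2 intensity was scaled by the 75th percentile of the 43379 spots that are not controls (312 to 605 units), spots marked as outliers were left out (98 to 179 per array), and repeat spots were averaged. Probes well above background on both arrays of a group (27937) were tested with limma 3.58.1 in R 4.3.3 on 2 residual degrees of freedom, two-sided, and called at a Benjamini-Hochberg adjusted p under 0.05. For arrays, their number limits the precision. Of the members, 60 probes matched a RefSeq gene by accession, 56 of them 1 symbol.

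The members, lists and alternatives were chosen with earlier results of these data known. Named genes were all of classical class I, class II, assembly, Cd74, Ciita, Cd1d1 and Mr1, the 8 largest absolute fold changes among the other H2-named genes, and the 3 largest of each pathway list. H2-T23, H2-T22, H2-Q10's further probes, and list genes other than these were named after their values were seen. Replicate numbers were not taken to pair samples. Deviations of same-numbered arrays correlated at -0.025, which cannot exclude a pairing with so few arrays. Scripts were tested on simulated data. The alternatives were other scalings and background corrections, the authors' values, other filters, kept outlier spots, an intensity trend, the methods' t-test, replicate or slide blocks, each sample left out, and the mean of a gene's probes.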

Additional observations from a re-analysis of the deposited data

How the results depend on the processing

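Limma called 0 probes, among members and over all probes, under each alternative except the omission of IEL replicate 2, where 2390 probes were higher and 3066 lower, 5 and 18 of them member probes. The 5, named after their values were seen, were 3 probes of H2-Q10 and 1 each of B2m and H2-Bl, none the brightest of its gene. With each sample left out in turn, these counts ranged from 0 to 2390 and from 0 to 3066 over all probes, and from 0 to 5 and from 0 to 18 among members. The methods' t-test called 0 members at an unadjusted p under 0.05 (470 probes higher and 349 lower in all) and 0 probes after adjustment. The replicate block called 0 probes as well, so it changed no call; the numbers are not known to pair samples. The class II median ranged from -2.76 to -0.30 with a sample left out, and was -2.63 within slide 1. The nonclassical median ranged from -0.08 to 0.46, and was 0.50 within slide 1, -0.08 within slide 2 and 0.62 with normexp. The classical median was 0.47 within slide 1, -0.02 within slide 2 and 0.68 with normexp, and the assembly median was 0.10 within slide 1. Normexp moved the median of all tested probes to -0.38, and fitted without the far-below spots to 0.15.

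Differences that changed sign were small on most settings. With normexp, Tap2 had 0.07, Cd1d1 0.26 and H2-Q1 -0.89, and H2-Eb2 had 0.20 when far-below spots were left out of the fit. Within slide 1, Tap1 had 0.01 and Tap2 0.19, and within slide 2, H2-K1 had -0.07, Cd1d1 0.01, H2-Q10 -0.08, H2-Q7 -0.13, H2-T24 0.00 and H2-Ke6 0.03. With a sample left out, Tap2 ranged from -0.27 to 0.15, Hspa5 from -0.17 to 1.46, H2-K1 from 0.00 to 0.41, H2-Q1 from -0.11 to 1.24, H2-Q10 from -0.05 to 0.65, H2-Q7 from -0.08 to 0.64 and H2-T24 from -0.95 to 0.12. The cause was not tested. Cd74, Ciita and the class II genes other than H2-Eb2 were lower under every alternative in which they were tested. Signal over background limits H2-Eb2, H2-DMb2, H2-Ob and March1, which were not well above background on all arrays.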
